A study of Sus scrofa with 80 samples.

Results

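The genes that make, carry and answer the hormones of the gonads were followed in testis and ovary of Göttingen minipigs, a small pig breed used in drug safety studies. The group was set by name as STAR, LHCGR, FSHR, INHA, INHBA, INHBB, AMH, AMHR2, FST and INSL3, and its members were those that stand on the array under their gene symbol. Of these 10 genes, 6 were found in that way (STAR, INHA, INHBB, AMHR2, FST and INSL3), among 23722 genes measured. The other 4 (LHCGR, FSHR, INHBA and AMH) were on the array only under a RefSeq transcript identifier, were named through the RefSeq gene table, and are described beside the members without being counted among them.

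Tissue RNA was hybridized to custom one-color Agilent arrays, and 72 tissue samples of untreated animals were compared. Testis came from 5 males, aged 1 week or 4 weeks (younger), 2 or 4 months (older) and 2 years, with 1 male per age, and ovary from 1 female at each of the first 4 ages. The 7 other tissues (bone marrow, spleen, liver, kidney and, from the brain, cortex, cerebellum and hypothalamus) each came from a male and a female at the first 4 ages and from a male at 2 years, which gave 63 samples. The labels do not name the animals, so it is not known which tissues came from the same pig.

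Pituitary luteinizing hormone acts through the receptor LHCGR on the steroid-making cells, the Leydig cells of the testis and the theca cells of the ovary, where STAR brings cholesterol into the mitochondria for the first step of steroid synthesis. Follicle-stimulating hormone acts through FSHR on Sertoli cells and granulosa cells, which secrete inhibins, made of the alpha subunit INHA and a beta subunit INHBA or INHBB. Beta subunits paired with each other form activins, which FST (follistatin) binds and neutralizes. AMH, anti-Müllerian hormone, is made by Sertoli and granulosa cells and signals through AMHR2, and INSL3 is a peptide hormone of Leydig and theca cells.

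Levels are given as log2 normalized intensity, a scale on which 1 unit is a 2-fold difference. They compare samples for 1 gene and not genes with each other, because probes differ in brightness. Gene spots had a median raw intensity between 27 and 89 per array, against 17 to 25 for the negative control spots, and between 57.8% and 74.9% of genes were well above background by the scanner software. The highest shares were those of the ovaries at 2 months (74.9%) and 1 week (73.2%). The ovaries at 4 weeks and 4 months had 68.5% and 63.9%. Repeated arrays of 1 kidney RNA differed by a median SD of 0.115 log2 units (8 arrays), which leaves out the difference between animals. All 2-year samples lay on slides of their own, so that age and slide cannot be told apart there, and they were left out of the main tests. The 8 gonad samples up to 4 months lay on 7 slides, where the testis at 4 months shared a slide with the ovary at 1 week. The tests used neighbouring ages as the only repeats, 1 and 4 weeks as younger and 2 and 4 months as older, so their p-values measure the spread between samples that also differ in age and animal. In whole tissue, fewer cells of a type and less RNA per cell cannot be told apart.

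The ovaries carried oocyte markers at each age, and the testes carried spermatid markers from 2 months on. The summed level of 8 oocyte markers was 10.51 to 12.82 log2 units in the ovaries, 7.48 to 8.39 in the testes and 8.00 to 9.10 in the other tissues. The summed level of 5 spermatid markers (PRM1, PRM2, TNP1, TNP2 and ACR) was 7.33 and 7.79 in the testes at 1 and 4 weeks, then 17.72 at 2 months, 17.73 at 4 months and 17.72 at 2 years, against 6.82 to 7.57 in the ovaries and 7.21 to 10.34 in the other tissues. At 1 and 4 weeks the testes were thus no higher than other tissues for these markers, and the sex-determining factor DMRT1 stood at 9.25 and 10.42 there, against 7.35 or lower in the ovaries. All 5 of these genes rose in the older testes, and the sum there stood near the upper end of the scanner's scale.

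STAR was high in every testis and, among the ovaries, in the oldest one. In testis its log2 level was 11.98 and 11.96 at 1 and 4 weeks, 10.12 and 10.13 at 2 and 4 months, and 11.49 at 2 years. In ovary it was 2.04 and 1.76 at 1 and 4 weeks and 2.30 at 2 months, where its probes were not well above background, and 9.31 at 4 months. The 5 testes thus lay above all 4 ovaries, by far at the first 3 ages and by 0.82 log2 units at 4 months. Because the 3 younger ovaries gave only an upper bound, the level in testis was at least 624-fold that in ovary at the age of 1 week, at least 525-fold at 4 weeks and at least 150-fold at 2 months. Such bounds set the mean of the brighter side against the lowest signal well above background on the dimmer array, or the probe's own signal where that was higher. They are approximate, because a probe can exceed that lowest signal and still not be well above background, as FST did at 4.11 in testis at 4 weeks. Over the 4 shared ages, STAR was higher in testis, with a fitted difference of 7.19 log2 units (SE 1.32, limma adjusted p = 0.00550) that rests on signals not well above background in 3 of the 4 ovaries, and this is 1 of the 4 members called of 6 between testis and ovary, where 37.8% of all genes were called. With age as a block none of the 4 calls held (adjusted p 0.09997 for FST, 0.113 for INSL3, 0.114 for STAR and 0.355 for AMHR2, with 16 genes called in all).

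INSL3 gave the brightest signal possible in every testis. All 5 testis values, 15.98, 15.91, 15.99, 15.93 and 15.998 log2 units from 1 week to 2 years, came from saturated spots, so no change with age could be read there. In ovary the level was 4.36 and 6.32 at 1 and 4 weeks, and 10.71 and 13.93 at 2 and 4 months, each higher than the one before. From the first to the last ovary this is a 761-fold difference between single samples. INSL3 was higher in testis than in ovary by at least 139-fold over the 4 ages (adjusted p = 0.000562), and, age by age, by at least 3161-fold, 771-fold, 38.7-fold and 4.02-fold. Saturation holds the testis values close together, so the spread of this test, and its p-value, can be too small. The same limit applies to the other INSL3 tests that share a spread with the testes.

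**Figure D1:**
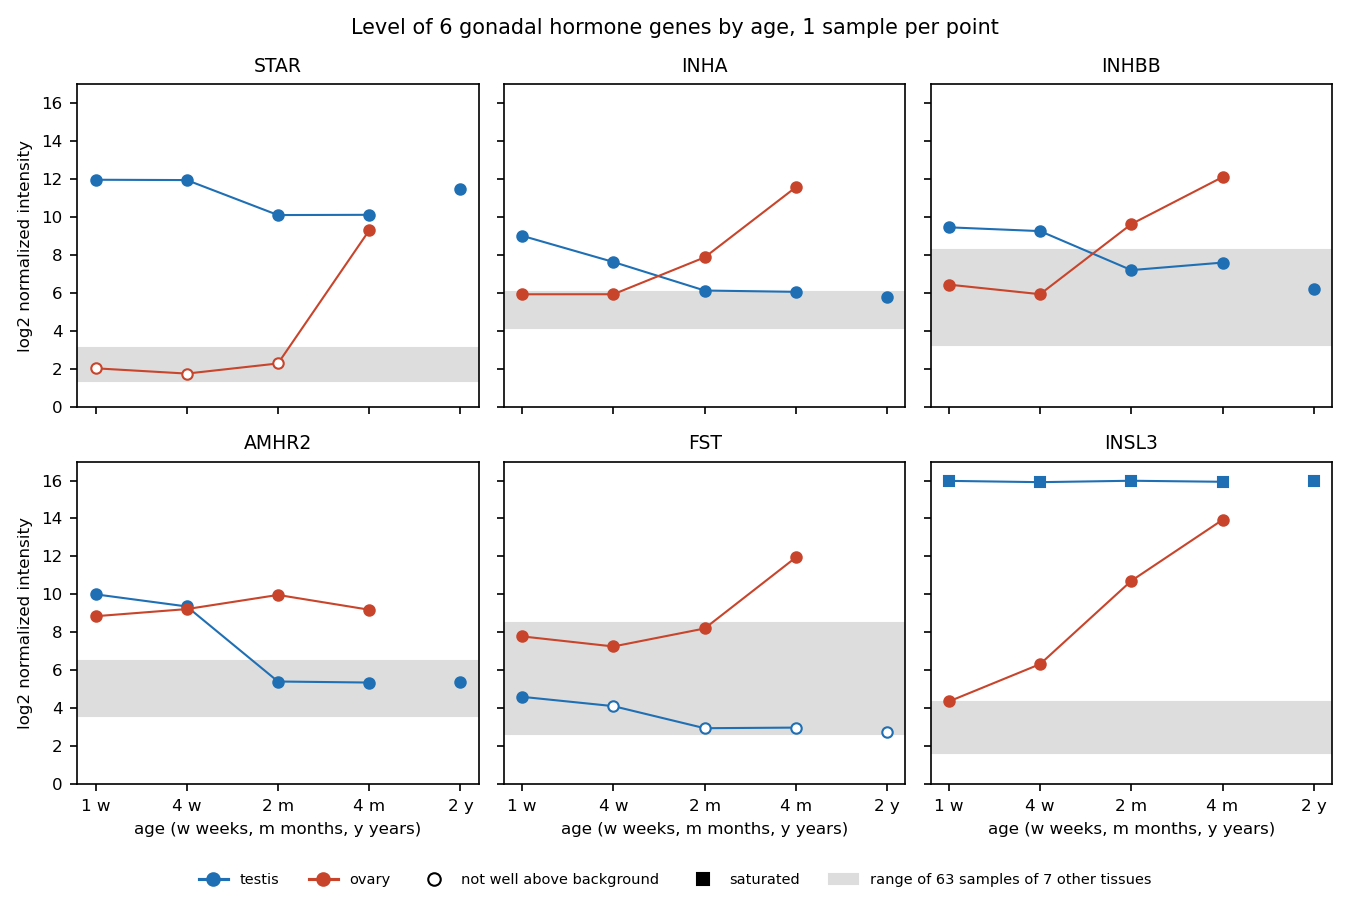
Log2 normalized intensity (y axis) of the 6 genes found under their symbol, against age (x axis), in testis (blue) and ovary (red), 1 sample per point; open points were not well above background, squares were saturated, and the grey band spans the 63 samples of the 7 other tissues. STAR stands in the band in ovary until 2 months and at 9.31 at 4 months, INHA and INHBB cross between testis and ovary after 4 weeks, and AMHR2 drops from 9.36 to 5.41 in testis between 4 weeks and 2 months.

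The change with age of the inhibin subunits INHA and INHBB differed between the gonads. INHA was at 9.03 and 7.64 log2 units in testis at 1 and 4 weeks, at 6.14 and 6.07 at 2 and 4 months, and at 5.79 at 2 years. In ovary it was at 5.94, 5.95, 7.89 and 11.59 at the 4 ages. Testis was therefore the higher gonad by 8.47-fold at 1 week and ovary by 45.7-fold at 4 months, and the mean over the 4 ages did not separate them (−0.62 log2 units, SE 0.75, adjusted p = 0.558). The change with age was 6.02 log2 units lower in testis than in ovary (SE 1.498, adjusted p = 0.0290). That call was lost, with an adjusted p of up to 0.0976, on leaving out the testis at 1 week, 2 months or 4 months or the ovary at 1 or 4 weeks, and with an offset of 50 (0.0995) or the authors' normalized values (0.0510).

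INHBB is the beta B subunit. Its log2 level in testis, from 1 week to 2 years, was 9.47, 9.27, 7.22, 7.61 and 6.21, and in ovary 6.45, 5.95, 9.64 and 12.12. The ovary values at 2 and 4 months lay above every testis value, and those at 1 and 4 weeks below the testis values of the same age. The 2 changes with age differed by −6.64 log2 units (SE 0.99, adjusted p = 0.00573), and this call held when any 1 of the 8 samples was left out. A second INHBB row, under a transcript identifier and dimmer, gave −3.17 (SE 0.94, adjusted p = 0.0493), with 4.49, 3.58, 2.75, 3.37 and 2.57 in testis and 3.62, 2.62, 4.36 and 6.28 in ovary. The probes of this second row agreed less well with each other (r = 0.824 over the 72 samples).

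INHBA, the beta A subunit, did not share this pattern. Its 2 probes belong to the array's cross-hybridizing class, so the signal may hold other transcripts. Testis values were 7.76, 7.72, 7.74, 7.15 and 7.62 log2 units from 1 week to 2 years, and ovary values 8.78, 8.50, 9.23 and 8.07, all within the 6.24 to 9.35 spanned by the other tissues. Each ovary lay above all testes, and INHBA was 1.05 log2 units lower in testis (SE 0.28, adjusted p = 0.0227). The call was lost on leaving out the testis at 1 week, 4 weeks or 4 months or the ovary at 1 or 4 weeks (adjusted p up to 0.0820) and with age as a block (0.0942), and no change with age was called (−0.29 in testis, adjusted p = 0.603, and 0.00 in ovary, adjusted p = 1.00).

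FST, the activin-binding protein, was higher in ovary than in testis at each age. Ovary levels were 7.78 and 7.25 log2 units at 1 and 4 weeks, and 8.20 and 11.95 at 2 and 4 months. In testis it was well above background at 1 week with 4.60, and stood at 4.11, 2.95, 2.98 and 2.77 at the later ages without reaching that mark. FST was lower in testis, with a fitted difference of −5.14 log2 units (SE 0.72, adjusted p = 0.00190) that rests on signals not well above background in 3 of the 4 testes used, and all ovaries lay above all testes. By age, the ovary exceeded the testis 9.09-fold at 1 week and then by at least 8.85-fold, 38.2-fold and 501-fold.

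AMHR2, the receptor for AMH, fell in testis after 4 weeks and not in ovary. In testis it was at 10.001 log2 units at 1 week and 9.36 at 4 weeks, then at 5.41, 5.35 and 5.40 at 2 months, 4 months and 2 years, within the 3.59 to 6.50 of the other tissues. The ovaries stood at 8.85, 9.22, 9.97 and 9.19. AMHR2 fell by 4.30 log2 units in the older testes (SE 0.34, adjusted p = 0.000164), which makes it the 1 member of 6 called in testis by age, where 37.4% of all genes were called. The change differed from that in ovary by −4.85 log2 units (SE 0.48, adjusted p = 0.000912), and over the 4 ages AMHR2 was 1.78 log2 units lower in testis (SE 0.24, adjusted p = 0.00156).

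AMH, the ligand, fell in testis as well. The testis samples had 13.58 and 11.02 log2 units at 1 and 4 weeks, 7.38 and 7.24 at 2 and 4 months, and 6.96 at 2 years, of which 2 lay near the low end of the other tissues (7.14 to 8.88) and the last below it. The ovaries had 9.21, 9.27, 10.67 and 10.91. AMH fell by 4.99 log2 units in the older testes (SE 0.70, adjusted p = 0.00205), and its change differed from that in ovary by −6.55 log2 units (SE 0.99, adjusted p = 0.00606). Averaged over the 4 ages, the gonads did not separate (−0.21, SE 0.50, adjusted p = 0.776).

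The 2 gonadotropin receptors were read from transcript identifiers. LHCGR was at 12.09, 12.08, 9.42, 9.95 and 10.57 log2 units in testis and at 5.79, 6.23, 6.64 and 11.80 in ovary, so the ovary passed the testis at 4 months after lying far below it. LHCGR was 3.27 log2 units higher in testis over the 4 ages (SE 0.98, adjusted p = 0.0360), a call that was lost on leaving out any testis or the ovary at 1 or 4 weeks (adjusted p up to 0.109), with age as a block (0.235), with an offset of 50 (0.0966) and on the authors' normalized values (0.0667). FSHR was at 6.31, 6.55, 4.86, 5.00 and 4.66 in testis and at 3.74, 4.33, 4.77 and 7.21 in ovary, which again left testis higher at 1 and 4 weeks and ovary higher at 4 months. Its change with age was 3.45 log2 units lower in testis than in ovary (SE 0.98, adjusted p = 0.0425), again lost on leaving out any testis or either of the 2 younger ovaries (adjusted p up to 0.134), with an offset of 50 (0.111) and on the authors' normalized values (0.0547). The 2 FSHR probes differed by a median of 2.64 and at most 3.72 log2 units within a sample (r = 0.928 between them).

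**Figure D2:**
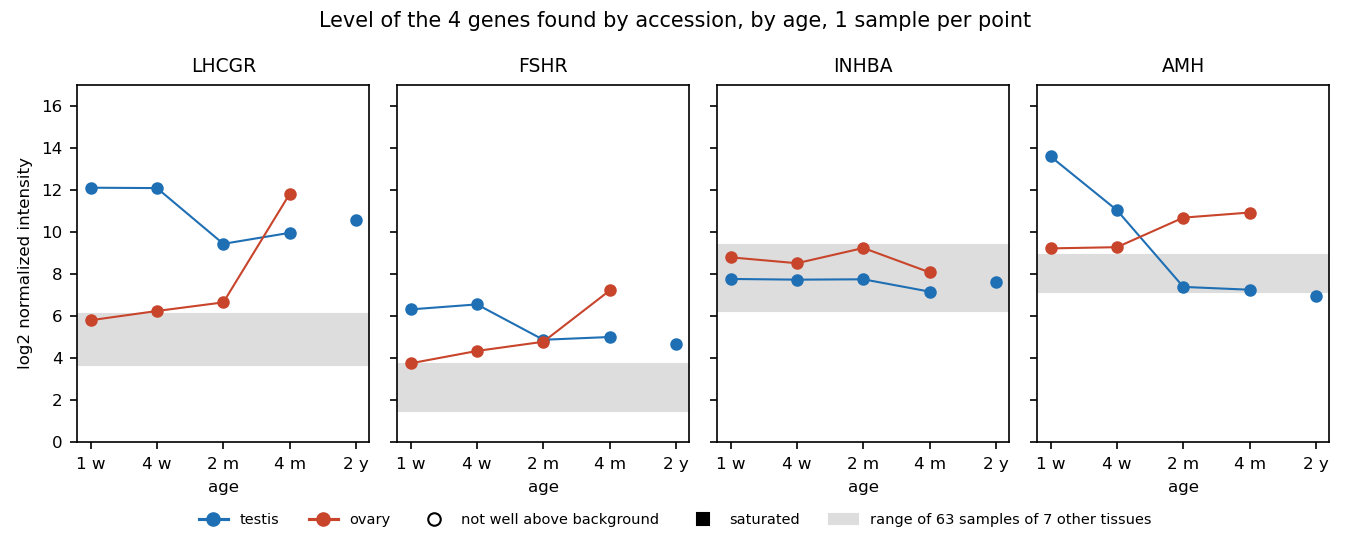
Log2 normalized intensity (y axis) of the 4 genes found by transcript identifier, against age (x axis), in testis (blue) and ovary (red), 1 sample per point, with the range of the 63 samples of the 7 other tissues in grey. AMH drops from 13.58 to 7.38 in testis over the first 3 ages, LHCGR stands at 11.80 in the oldest ovary against 6.64 at 2 months, and INHBA stays inside the grey band.

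Taking the age comparison over all members, the testis side was mostly downward and the ovary side upward, but few single changes passed the test. In testis, 5 of 6 members had lower means at 2 and 4 months than at 1 and 4 weeks, with a median difference of −1.90 log2 units against −0.20 over all genes. Beside AMHR2, the differences that did not pass were −2.23 for INHA (adjusted p = 0.143), −1.96 for INHBB (0.0656), −1.85 for STAR (0.482) and −1.39 for FST (0.332), and for the receptors −2.40 for LHCGR (0.222) and −1.50 for FSHR (0.133). These p-values depended on the ovaries as well, since both gonads share 1 estimate of spread. Without the ovary at 2 months or the ovary at 4 months, the fit held no spread among older ovaries, and more members passed in testis.

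In ovary, all 6 members had higher means at the older ages, with a median difference of 3.85 log2 units against 0.02 over all genes, and none of them passed the test, as only 0.0379% of all genes (9 genes) did. At an unadjusted p under 0.05, 4 of the 6 were counted, and 1651 of all genes. The differences were 6.98 for INSL3 (SE 1.01, adjusted p = 0.132), 4.68 for INHBB (SE 0.70, adjusted p = 0.148), 3.90 for STAR (adjusted p = 0.743), 3.79 for INHA (adjusted p = 0.490), 2.56 for FST (adjusted p = 0.691) and 0.54 for AMHR2 (adjusted p = 0.790). Leaving out the ovary at 2 months set 1 animal, the ovary at 4 months, against the 2 younger ones, so that fit holds no spread among older ovaries. The differences were then 8.59 for INSL3, 7.41 for STAR, 5.92 for INHBB, 5.64 for INHA, 4.43 for FST and 0.15 for AMHR2. With the spread taken from all 9 tissues, 5 of 6 were called in ovary, where 619 of all genes were. The same spread called 4 of 6 in testis, where the alternative settings called between 7865 and 11192 of all genes. That spread includes tissues where STAR and INSL3 were not well above background in any of 63 samples, so it can be too small for them.

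**Figure D3:**
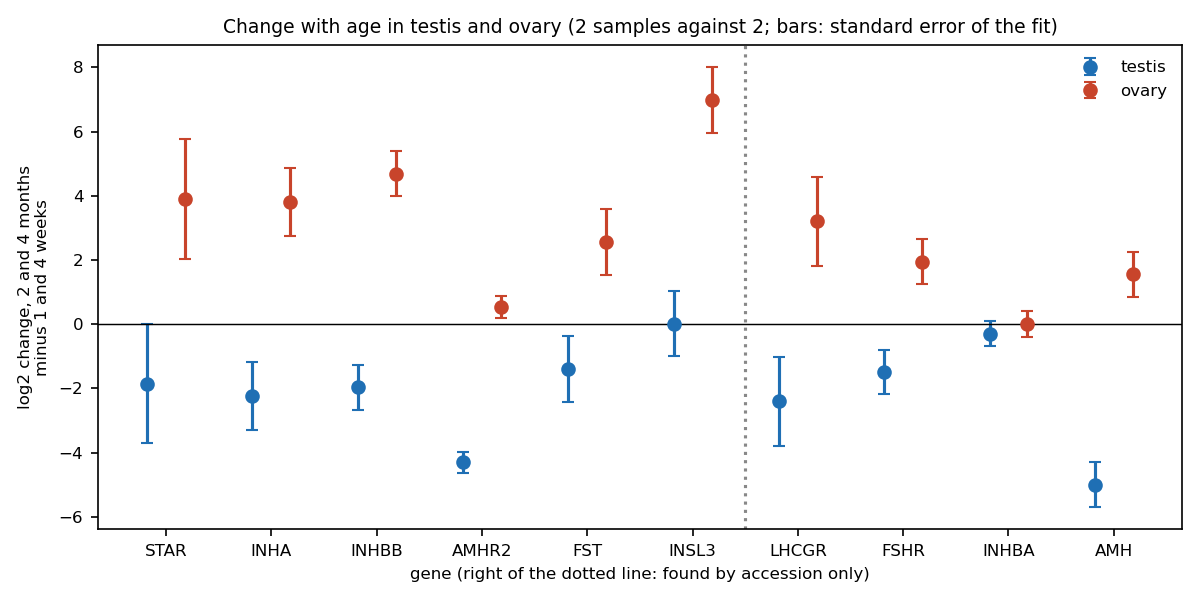
Log2 change (y axis) from the samples at 1 and 4 weeks to those at 2 and 4 months, for each gene (x axis), in testis (blue) and ovary (red), with the standard error of the limma fit as bars (2 samples against 2); the testis value of INSL3 comes from saturated spots. For AMHR2 the testis change is −4.30 and the ovary change 0.54, for INHBB they are −1.96 and 4.68, and INHBA lies near 0 in both.

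The difference between the 2 changes was negative for all 6 members and passed the test for 4 of them (INHA, INHBB, AMHR2 and INSL3). Of all genes, 23.7% passed in either direction, 3080 of them with a negative difference. For INSL3 the limit on its spread given above applies. The median was −5.88 log2 units over the members and −0.22 over all genes. STAR with −5.75 (SE 2.64, adjusted p = 0.158) and FST with −3.95 (SE 1.45, adjusted p = 0.0904) did not pass, nor did LHCGR with −5.61 (SE 1.96, adjusted p = 0.0796). For INSL3 the value of −6.97 (SE 1.43, adjusted p = 0.0162) carries only the ovary side, because the testis was saturated at each age, and it was lost on leaving out the testis at 2 or 4 months or the ovary at 1 week (adjusted p up to 0.0654).

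Step by step, the members moved at different ages. Between 4 weeks and 2 months, STAR was 3.59-fold lower in testis, INHA 2.84-fold, INHBB 4.16-fold and AMHR2 15.5-fold, so 4 of 6 members were at least 2-fold lower, where 17.8% of all genes were. FST, not well above background at either age, is not counted here, and INSL3 was saturated. Among the 4 genes read by identifier, AMH was 12.5-fold, LHCGR 6.28-fold and FSHR 3.21-fold lower at this step. After 2 months the testis values of AMHR2 and INHA moved little, by at most 1.22-fold per step, and STAR was 2.56-fold higher at 2 years than at 4 months, which were on different slides. INHA and AMH had already been 2.60-fold and 5.88-fold lower at 4 weeks than at 1 week.

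In ovary the largest step of STAR, INHA and FST was the last one. From 2 to 4 months, STAR differed by at least 85.9-fold, FST by 13.4-fold, INHA by 13.0-fold, INSL3 by 9.28-fold and INHBB by 5.58-fold, so 5 of 6 members were at least 2-fold higher, where 5.28% of all genes were. LHCGR was 35.8-fold and FSHR 5.42-fold higher. AMHR2 was 1.72-fold lower at 4 months, INHBA 2.23-fold lower and AMH 1.18-fold higher. INHBB and INSL3 had moved earlier as well, being 12.9-fold and 21.0-fold higher at 2 months than at 4 weeks. These steps set 1 animal against 1 animal and have no replicate check.

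Some sums of cell type markers moved at the same ages as these levels, though not all markers in them did. Their part in the results was not tested. In testis the spermatid markers went from 2 of 5 well above background at 4 weeks to 5 of 5 at 2 months, at the step where 4 members stood lower. The summed level of 6 Sertoli cell markers was 12.78 and 12.70 log2 units in the younger testes and 11.09 and 11.37 in the older ones, and 4 of the 6 fell. This sum does not set Sertoli cells apart. It was 12.85, 12.84, 12.73 and 11.79 over the 4 ovaries, carried there by WT1 and GATA4. Beside this and the next counts of genes that fell, 5400 of 23722 genes fell in testis by age, with 37.4% called in either direction. The summed level of 4 Leydig and theca markers was 12.80 and 12.97 in the younger testes and 11.21 and 10.65 in the older ones, and 2 of the 4 fell. Markers of other cell types were lower in the older testes as well: the endothelial sum went from 9.70 and 8.79 to 7.73 and 7.76 (1 of 3 genes fell), the macrophage sum from 10.19 and 9.36 to 7.96 and 7.03 (2 of 3 fell), and the sum of smooth muscle and peritubular markers from 13.58 and 13.13 to 11.65 and 11.30 (1 of 2 fell). In ovary the Leydig and theca sum was 6.14, 6.44, 6.92 and 10.57 over the 4 ages, and the sum of 3 granulosa markers 5.91, 5.92, 6.88 and 9.80. In the ovary at 4 months the granulosa sum was carried by HSD17B1 at 9.72, while CYP19A1 was at 5.15 (5.06 to 5.09 in the younger ovaries) and FOXL2 at 4.11. The Leydig and theca sum was carried there by CYP11A1 at 10.43 and, with a smaller difference, NR5A1 at 6.68 (4.94 to 5.94 before), while HSD17B3 was at 3.61 (3.33 to 3.99 before) and the CYP17A1 row under the gene symbol at 4.74 (4.42 to 4.81 before). The oocyte sum of this ovary, 10.51, was the lowest of the 4. Adrenal cortex markers, a check for tissue that also makes steroids, summed to 5.94 to 6.82 in the ovaries, 6.00 to 7.74 in the testes and 4.895 to 6.77 in the other tissues. CYP21A2 was at 7.43 and 6.81 in the younger testes and 4.51 to 4.74 in the later ones, against 3.34 at most in the other tissues. Its second row, under a transcript identifier, was at 4.42 and 4.18 in the younger testes, below the 6.43 reached in the other tissues. MC2R was at 5.40 and 5.54 there, against up to 6.67.

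Against the other tissues, most members were higher in the gonads. Testis up to 4 months was higher than the mean of the 7 other tissues for 5 of 6 members, and ovary for 6 of 6. Of all 23722 genes, 60.9% were called in either direction for testis (5721 higher and 8723 lower). For ovary 49.2% were (5290 higher and 6374 lower). The median difference was 2.75 log2 units for testis (−0.17 over all genes) and 3.62 for ovary (−0.10 over all genes), and both comparisons share the same 56 other samples. STAR was not well above background in any of the 63 other samples (lowest 1.36, median 2.31, highest 3.12), so testis stood at least 253-fold above them (adjusted p = 8.43e-24). INSL3 was likewise dim in all 63 (1.63, 2.34 and 4.31), and stood at least 7374-fold higher in testis (adjusted p = 1.00e-29) and at least 52.9-fold higher in ovary (adjusted p = 3.98e-15). These p-values belong to the fitted differences, whose spread came from all 9 tissues. That spread can be too small for STAR and INSL3, which were dim in the other tissues.

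The ovary's excess in STAR rested on a single sample. The mean of STAR was 3.85 log2 units in ovary and 2.31 in the other tissues up to 4 months (limma adjusted p = 0.00517). Only 1 of 4 ovaries was well above background, so no bound on the fold can be given. Without the ovary at 4 months the difference was −0.28 log2 units (adjusted p = 0.334). AMHR2 was 4.54 log2 units higher in ovary than in the other tissues (SE 0.37, adjusted p = 9.86e-16) and 2.76 higher in testis (SE 0.37, adjusted p = 5.21e-09), although the testes from 2 months on lay within the range of the other tissues. INHA was 3.02 higher in ovary (SE 0.39, adjusted p = 2.57e-09) and 2.40 higher in testis (SE 0.39, adjusted p = 3.85e-07). For INHBB the differences were 2.89 in ovary (SE 0.53, adjusted p = 7.05e-06) and 2.74 in testis (SE 0.53, adjusted p = 1.12e-05).

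Outside the ovary, FST was highest in liver, bone marrow and spleen. It was 4.21 log2 units higher in ovary than in the 7 other tissues (SE 0.47, adjusted p = 4.25e-11), while testis differed by −0.93 (SE 0.47, adjusted p = 0.0819). By mean level the order was ovary with 8.80 ± 2.14 (SD, n = 4), liver with 6.53 ± 1.28 (n = 9), bone marrow with 6.14 ± 1.31 (n = 9), spleen with 5.28 ± 0.50 (n = 9) and kidney with 3.80 ± 0.66 (n = 9), then cortex, hypothalamus and cerebellum between 3.50 and 3.59, and testis with 3.48 ± 0.82 (n = 5). The last places have no order, since FST was well above background in 1 of 5 testes and 2 of 9 kidneys. Each neighbour in this order overlapped the next.

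The other members had shorter orders. STAR in testis, 11.14 ± 0.94 (SD, n = 5), lay clear of ovary with 3.85 ± 3.65 (n = 4), and the 7 other tissues followed between 1.99 and 2.80. INHBB was highest in ovary with 8.54 ± 2.89 (n = 4), then in testis with 7.96 ± 1.39 (n = 5) and hypothalamus with 7.15 ± 0.42 (n = 9), and lowest in spleen with 4.30 ± 0.54 (n = 9), with overlap at every step. INHA and AMHR2 were also highest in ovary and second in testis, with 7.84 ± 2.66 and 6.93 ± 1.38 for INHA and 9.31 ± 0.47 and 7.10 ± 2.36 for AMHR2, and the next tissue overlapped testis in both.

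**Figure D4:**
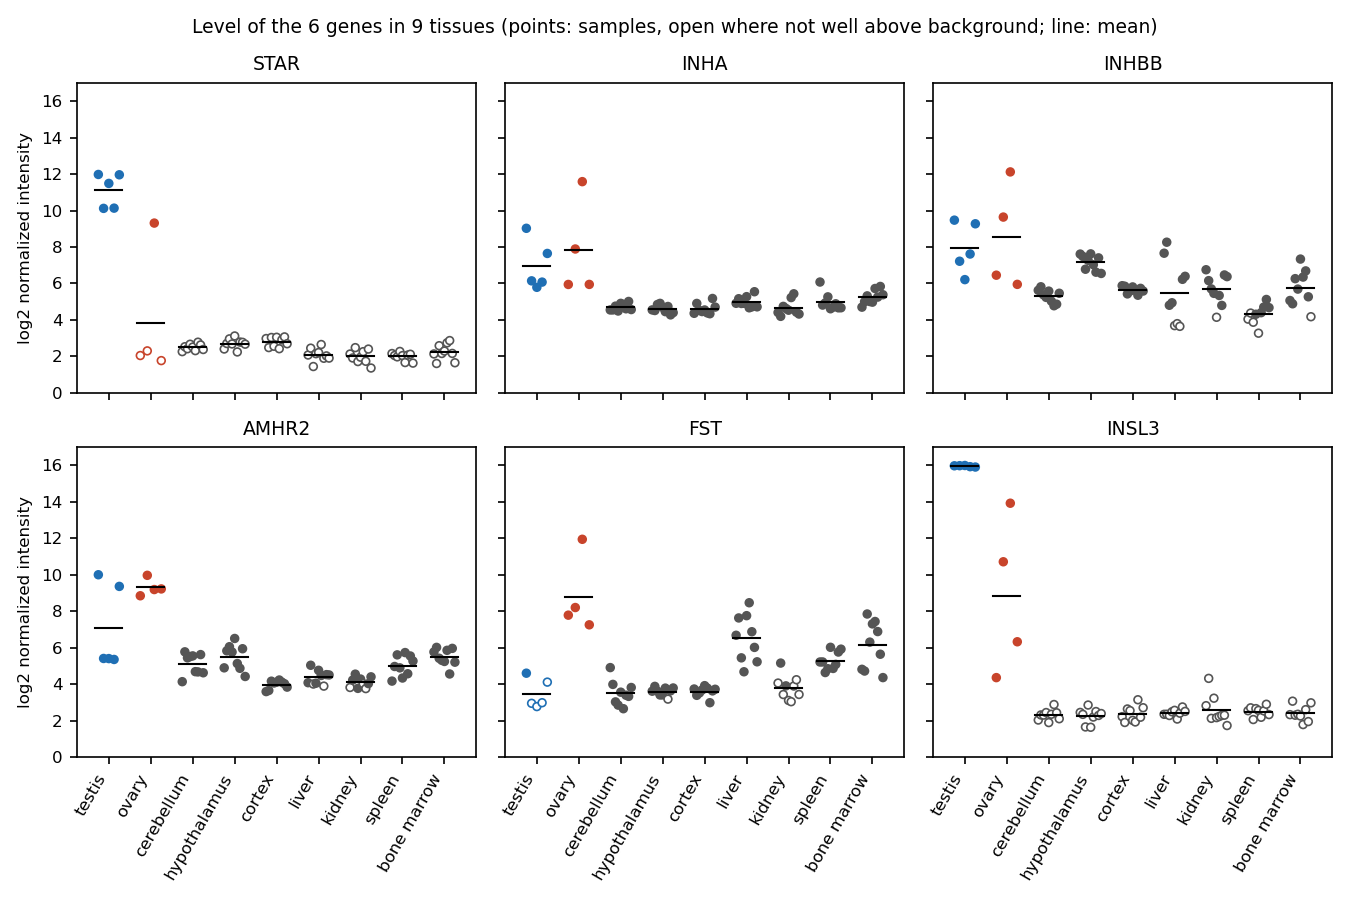
Log2 normalized intensity (y axis) of the 6 genes in each of the 9 tissues (x axis), 1 point per sample over all ages, open where not well above background, with the mean as a line; the INSL3 points in testis are saturated. STAR and INSL3 are open in all 63 samples outside the gonads, and FST reaches 8.47 in liver and 7.85 in bone marrow, above all 5 testes.

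Of the 4 genes read by identifier, LHCGR was 6.44 log2 units higher in testis than in the 7 other tissues (SE 0.42, adjusted p = 4.36e-20) and 3.17 higher in ovary (SE 0.42, adjusted p = 5.29e-09). FSHR was 3.45 higher in testis (SE 0.26, adjusted p = 8.08e-18) and 2.79 higher in ovary (SE 0.26, adjusted p = 5.03e-14), and was well above background in 2 of the 63 other samples. The spread of its tests can be too small for that reason. AMH was 2.06 higher in testis (SE 0.39, adjusted p = 9.37e-06) and 2.27 higher in ovary (SE 0.39, adjusted p = 2.51e-06). INHBA had its highest mean in kidney, 8.76 ± 0.35 (SD, n = 9), and was 0.79 higher in ovary than elsewhere (SE 0.17, adjusted p = 7.70e-05) but not in testis (−0.27, SE 0.17, adjusted p = 0.158).

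Outside the gonads, 3 of 42 pairs of member and tissue changed after 4 weeks, where 2.6% of all pairs of gene and tissue did. INHBB fell in liver: female and male had 7.66 and 8.26 log2 units at the age of 1 week, 6.23 and 6.39 at 4 weeks, then 4.80 and 4.94 at 2 months, 3.79 and 3.64 at 4 months, and the male at 2 years had 3.68. The last 3 values were not well above background, each age up to 4 months lay below the one before for both sexes, and the change was −2.84 log2 units (SE 0.48, adjusted p = 0.0256). The call was lost on leaving out either sample at 1 week or at 4 months or the male at 2 months (adjusted p up to 0.0939), with an offset of 50 (0.0781) and on the authors' normalized values (0.0520). The second INHBB row fell in liver by 0.73 log2 units (SE 0.14, adjusted p = 0.0381). INHBB also fell in kidney by 1.11 log2 units (SE 0.21, adjusted p = 0.0164), from 6.75 and 6.15 at 1 week and 6.46 and 6.37 at 4 weeks to 5.70 and 5.45 at 2 months and 5.34 and 4.79 at 4 months, with 4.14 at 2 years, and lost the call without the 1-week female (adjusted p = 0.0566). The second INHBB row showed no called change in kidney (−0.10, SE 0.23, adjusted p = 0.822).

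FST rose in bone marrow by 2.24 log2 units (SE 0.36, adjusted p = 0.0291). Female and male had 4.81 and 4.72 at the age of 1 week, 5.64 and 4.36 at 4 weeks, then 7.85 and 6.30 at 2 months, 7.43 and 6.88 at 4 months, and the 2-year male had 7.30, so all older samples lay above all younger ones. The call held without the female at 4 weeks or the male at 2 months and was lost on leaving out any of the other 6 samples (adjusted p up to 0.114), with an offset of 50 (1.25, adjusted p = 0.0662) and on the authors' normalized values (0.0624). In liver FST had no such order, with 6.68 and 7.63 at the age of 1 week, 6.01 and 5.22 at 4 weeks, 5.44 and 4.68 at 2 months, then 8.47 and 6.87 at 4 months and 7.76 at 2 years. Among the genes read by identifier, LHCGR fell in kidney by 1.28 log2 units (SE 0.30, adjusted p = 0.0318), from 4.98 and 6.11 at 1 week to 3.98 and 3.78 at 4 months, and lost the call on leaving out the 1-week female, either sample at 2 months or the male at 4 months (adjusted p up to 0.0887). With an offset of 50 the LHCGR change in kidney was −0.42 (adjusted p = 0.117).

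**Figure D5:**
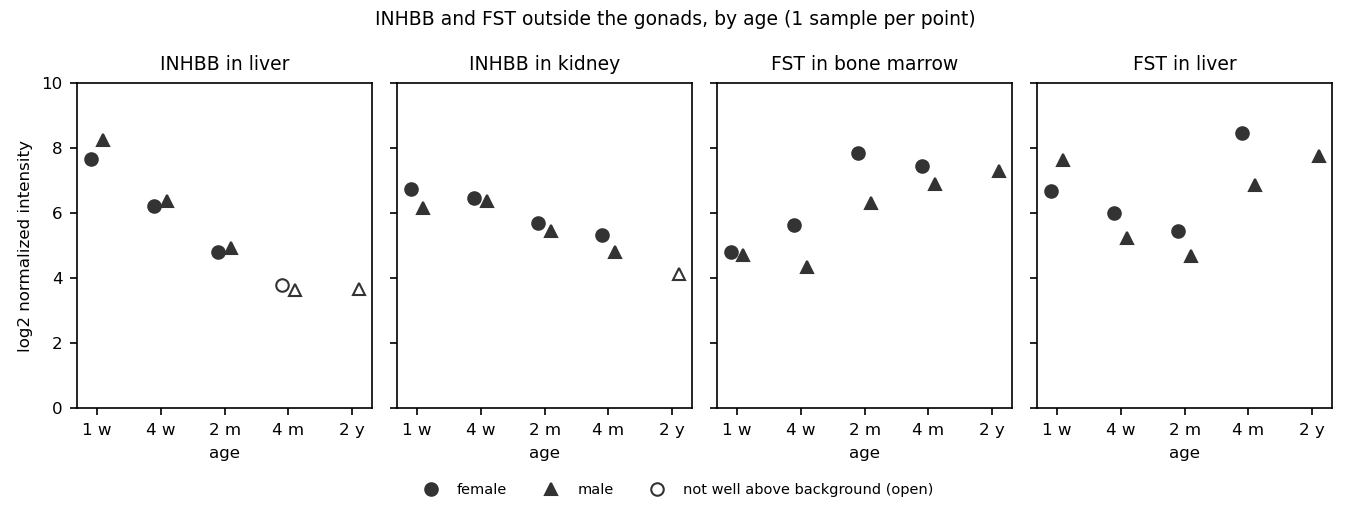
Log2 normalized intensity (y axis) of INHBB in liver and kidney and of FST in bone marrow and liver, against age (x axis), for females (circles) and males (triangles), 1 sample per point, open where not well above background. INHBB drops from 8.26 to 3.64 in male liver between 1 week and 4 months, and FST in bone marrow is at 6.30 or above in every sample from 2 months on.

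Males and females did not separate for any member in the 7 other tissues. Over 28 samples of each sex, compared within tissue and age, 0 of 6 members were called by limma, where 0.253% of all genes (60 genes) were. At an unadjusted p under 0.05 the count was 1, INSL3, which was below background in all of these samples.

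The genes whose pattern over the 72 samples was most like that of a member were sought among 14089 genes, as a description, since these samples share tissues and ages. For STAR they were CYP17A1 (r = 0.977), which makes androgen precursors, CYP11A1 (r = 0.964), which cuts the cholesterol side chain, and CYP19A3 (r = 0.959), a pig aromatase. For INSL3 they were CYP11A1 (r = 0.967), CYP17A1 (r = 0.952) and LHCGR (r = 0.944). For INHA the nearest were TMEM221 (r = 0.842), FSHR (r = 0.830) and AMH (r = 0.770), and for AMHR2 TMEM221 (r = 0.810), ZSCAN21 (r = 0.779) and TRIML2 (r = 0.770). INHBB came nearest to OBSL1 (r = 0.723), to its own second row (r = 0.713) and to GFPT2 (r = 0.712), and FST to OLFML3 (r = 0.811), GPR77 (r = 0.795) and EML4 (r = 0.788).

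The levels of these steroid enzymes show what the likeness rests on. CYP11A1 was at 12.60, 12.84, 10.99, 10.39 and 11.40 log2 units in testis from 1 week to 2 years, and at 3.05, 3.88, 4.19 and 10.43 in ovary. CYP17A1, under its transcript identifier, was at 12.09, 12.41, 10.99, 11.08 and 12.16 in testis and at 2.09, 2.71, 3.57 and 9.89 in ovary. CYP19A3 was at 10.64, 11.38, 9.70, 9.73 and 11.77 in testis and at 2.53, 2.82, 3.84 and 10.08 in ovary. All 3, like STAR, were high in each testis and, among the ovaries, in that at 4 months. A second CYP17A1 row, under the gene symbol, showed none of this: testis minus ovary was −0.05 (SE 0.15, adjusted p = 0.846), against 7.08 (SE 1.20, adjusted p = 0.00402) for the identifier row.

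Of 19 other genes of steroid synthesis, 8 were higher and 2 lower in testis than in ovary, where 37.8% of all genes were called, with a median of 0.65 log2 units (−0.06 over all genes). CYP17A1 enters here, and in the Leydig and theca sums above, by its row under the gene symbol and not by the identifier row that resembled STAR. With age as a block 16 genes in all were called between testis and ovary, a limit on each list's count in that comparison. CYP11A1 was higher by 6.32 (SE 1.19, adjusted p = 0.00608), HSD17B3, which makes testosterone, by 4.71 (SE 0.19, adjusted p = 1.81e-05), SRD5A1, a 5-alpha reductase, by 3.71 (SE 0.33, adjusted p = 0.000361) and FDX1, the ferredoxin that feeds electrons to CYP11A1, by 2.76 (SE 0.65, adjusted p = 0.0142). HSD17B1, which makes estradiol, was lower in testis by 2.07 log2 units, at the edge of the threshold (SE 0.69, adjusted p = 0.04999), with 4.20, 4.19, 6.12 and 9.72 over the 4 ovaries. By age in testis 1 of the 19 rose (SRD5A1, 1.74, adjusted p = 0.0234) and 4 fell, below the 37.4% of all genes called, among them HSD17B3 (−1.65, adjusted p = 0.00381) and FDXR, the reductase that reduces FDX1 (−2.03, adjusted p = 0.0123). In ovary by age 0 of 19 were called by limma.

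Of 23 other genes of gonadotropin and TGF-beta family signalling, 0 were higher and 13 lower in testis than in ovary, against 37.8% of all genes called, with a median of −0.77 log2 units. The oocyte factors GDF9 (−3.76, SE 0.53, adjusted p = 0.00197) and BMP15 (−3.01, SE 0.38, adjusted p = 0.00130) differed most, then BMP6 (−2.43, SE 0.40, adjusted p = 0.00357). By age in testis 10 of the 23 fell and 0 rose, a share near the 37.4% of all genes called, with SMAD7, an inhibitor of the pathway (−2.39, SE 0.30, adjusted p = 0.00131), SMAD1 (−1.79, SE 0.34, adjusted p = 0.00627) and SMAD3 (−1.68, SE 0.27, adjusted p = 0.00335), both signal transducers, among them.

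Of 14 gonadal transcription factors and steroid receptors, 3 were higher in testis and 6 in ovary, and 7 fell with age in testis while 0 rose, against 37.8% and 37.4% of all genes called in these comparisons. DMRT1 (3.87, SE 0.55, adjusted p = 0.00200) and SOX9 (2.83, SE 0.20, adjusted p = 0.000131), both factors of the male pathway, were higher in testis, and the receptors PGR (−2.30, SE 0.23, adjusted p = 0.000590) and ESR1 (−2.05, SE 0.22, adjusted p = 0.000702) higher in ovary. NR5A1, a regulator of STAR and other steroid genes, fell in testis by 1.26 log2 units (SE 0.28, adjusted p = 0.0115), and its change with age differed from that in ovary by −2.63 (SE 0.39, adjusted p = 0.00577). Of 8 steroid-responsive genes, 2 fell with age in testis (TSC22D3 with −1.51, adjusted p = 0.00730, and PGR with −1.15, adjusted p = 0.0314) and 0 rose. Of 13 hormones and receptors of hypothalamus and pituitary, 3 rose with age in testis and 1 fell, so that both lists lay below the 37.4% of all genes, and POMC had the largest of these changes (2.54, SE 0.38, adjusted p = 0.00245).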

How the data were processed

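The authors hybridized total RNA to custom one-color Agilent arrays and deposited 1 scanner file per array, made with Agilent Feature Extraction 11.5.1.1 according to the submitters' processing notes. The deposited files hold the median raw intensity of each spot, not normalized between arrays, and the authors' series table holds log2 values of the same arrays (r between 0.991 and 0.998 with the log2 of the scanner's processed signal, median 4.57 in each column). The series table served only as an alternative. Its direction and log base follow from that comparison, its centring is not stated.

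Of 62976 spots per array, 61289 are gene spots and 308 negative controls. Median intensities were background-corrected in limma 3.58.1 (R 4.3.3) with normexp (offset 0), quantile normalized over gene and negative control spots and turned to log2, after the quantile and log2 steps named in the study's methods. Flagged spots (10 to 590 per array) were left out, and spots, then probes of a gene, were averaged. Of 23736 genes, 14 lacked a value and were dropped. Samples were grouped by the deposited labels. The 8 repeats of 1 kidney RNA were averaged, and a renal pelvis array was kept apart. Precision is limited by 1 sample per gonad and age.

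Gonads were tested with limma on 8 samples (4 groups of 2), tissues on 64 samples up to 4 months, age in each other tissue on 8 samples and sex on 56 samples with tissue by age as a block. Benjamini-Hochberg adjustment ran over all 23722 genes, with calls at an adjusted p under 0.05. A gene counts as well above background if any probe does. The fits were tested on simulated data. Alternatives were the scanner's processed signal, an offset of 50, median scaling, filters, probe rules, shared spread, blocks and leaving out samples, and, chosen after seeing the data, the series table, slide as a covariate and leaving out samples of the other tissues.

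The rule for named genes takes every member, the listed genes with the largest called differences or asked for by role, and the 3 genes most like each member, among genes well above background in at least 4 samples. Members and gene lists were chosen with earlier results of these data known. Of 122 listed genes, 114 were measured, 28 of them by transcript identifier, and 20 had a further row under an identifier. Counts and sums of the lists used the row under the gene symbol where there was one. Of 10818 rows with an identifier only, 3019 were named by the RefSeq gene table. No coordinates or sequences are given, because the array files name no genome build.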

Additional observations from a re-analysis of the deposited data

Results flagged for a closer look

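With 1 animal per point, 4 of 62 groups of 4 to 9 samples held a sample that stood apart from the rest, and chance alone gives about 1 in 20. STAR in the ovary at 4 months had 9.31 log2 units against 2.30 in the next ovary, a gap of 0.929 of the group's range. LHCGR in the same ovary had 11.80 against 6.64, a gap of 0.859 of the range. INHBA in the testis at 4 months was the lowest of its group with 7.15 against 7.62 (0.777 of the range). INHA in the spleen of the 1-week female had 6.08 against 5.26 in the next spleen (0.555 of the range).

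The change with age differed between testis and ovary by a test of that difference for 6 of the 10 genes. Of all genes, 23.7% were called in this test. The calls of INHA, INSL3 and FSHR were lost on leaving out some single samples, as given above. The values, testis minus ovary in log2 units, were −6.02 for INHA, −6.64 for INHBB, −4.85 for AMHR2, −6.97 for INSL3, −3.45 for FSHR and −6.55 for AMH. For INSL3 all testes were saturated, so the testis change cannot be read and the value carries only the ovary side.

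The single renal pelvis array of the 2-year male entered no comparison. There INHBB had 6.71 log2 units, 2.57 above the mean of the 8 kidney repeats, whose highest value was 4.28. FST had 4.22, 1.12 above that mean (highest repeat 3.42), and LHCGR 3.95, 0.264 above it (highest repeat 3.82).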

How the results depend on the processing

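Over all settings, 778 of 900 recomputed log2 differences kept their direction and their side of the threshold, 18 changed sign, 37 lost a call and 67 gained one. The main count of 4 members called between testis and ovary became 0 with age as a block (adjusted p from 0.09997 to 0.355), when all genes called went from 8972 to 16. For testis by age the count of 1 became 4 with the spread shared by all tissues, 2 with the 2-year testis added and 4 with slide as a further term. Over these and the other alternatives, 7865 to 11192 of all genes were called in testis by age. For ovary by age the count of 0 became 5 with the shared spread and 4 with slide. The count of 3 member and tissue pairs changing with age became 1 with an offset of 50 and 1 on the authors' series table. Leaving out 1 sample at a time gave 4 to 6 members for testis against ovary, 1 to 5 for testis by age, 0 to 5 for ovary by age, 2 to 6 for the difference (4 in the main fit; 2 without testis at 2 months, testis at 4 months or ovary at 1 week), 5 to 6 for testis against other tissues and 5 to 6 for ovary against them. Leaving out each sample of the other tissues, chosen after seeing the data, gave 2 to 4 pairs changing with age and 2680 to 6812 over all genes (4311 in the main fit). Over all genes, ovary by age had 15 calls on the processed signal, 4 with the offset, 619 with the shared spread, 537 with slide and 0 to 339 with a sample left out (9 in the main fit). The difference had 8762 with the shared spread and 2247 to 6379 with a sample left out (5623), testis by age 4835 to 9745 (8871), and sex 8 without the block (60). In the tests on gonads only, leaving out a sample left 1 animal in its age class, so those counts rest on no spread within that class. The cause of these shifts was not tested.

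Changes of sign were seen for small differences. INSL3 in testis by age, saturated, was −0.25 on the processed signal, −0.43 with median scaling and −0.24 with slide, and −0.0211 to 0.0472 with a sample left out (0.01 in the main fit). INHBA, ovary by age, was −0.0744 on the processed signal, −0.13 on the series table and −0.0306 with slide, and −0.58 to 0.58 with a sample left out. With median scaling, testis against ovary was 0.00190 for INHBB and 0.0488 for AMH. With a sample left out it was −0.77 to 0.47 for INHBB, −0.85 to 0.43 for AMH and −1.54 to 0.30 for INHA, the last without the ovary at 4 months. STAR in ovary against other tissues was −0.28 to 2.24, INHBA's difference −0.88 to 0.28 and INHBA in testis by age −0.59 to 0.000307.

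The labels give no replicate numbers, and the pairing of testis and ovary by age is the age block given above. Weak genes lay near the negative controls, and INSL3 in testis was beyond the upper end of the scanner's range.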
